A study of Homo sapiens with 12 samples.

Results

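The mRNAs of 10 inflammatory chemokines and interleukin 6 (IL6) family cytokines were measured in 2 human non-small cell lung cancer lines with and without isovalerylspiramycin I (ISP-I), the macrolide component isolated from the antibiotic carrimycin. The members were taken by gene symbol, 10 of the 19973 genes listed: the chemokines CXCL1, CXCL2, CXCL3, CXCL5, CXCL8, CCL2 and CCL20, and the cytokines IL6, IL11 and LIF. The lines were H460, from a large cell carcinoma, and A549, from an adenocarcinoma, both labelled wild type (WT). That label does not mean free of mutations, since the authors describe both lines as homozygous for inactive KEAP1. Each line had 3 non-treated control libraries and 3 libraries of cells given 10 μM ISP-I for 48 h, 12 libraries in all. Total RNA of whole cultures was sequenced, so a rise in a few cells and a rise in every cell cannot be told apart, nor can fewer cells of a kind and less RNA per cell. Whether the controls received the DMSO solvent, and whether the 3 libraries of a group came from separate cultures, are not given in the sources used here, so p values measure the spread between these libraries, which may be technical.

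Chemokines are small secreted proteins that draw leukocytes along a gradient. CXCL1, CXCL2, CXCL3, CXCL5 and CXCL8 (also called interleukin 8) carry the ELR motif before their paired cysteines and attract neutrophils. They act through the receptor CXCR2, and CXCL8 also through CXCR1. CCL2 attracts monocytes through CCR2, and CCL20 attracts lymphocytes and dendritic cells through CCR6. IL6, IL11 and LIF (leukemia inhibitory factor) signal through receptor chains that pair with gp130, the product of IL6ST, and from there through JAK kinases to the transcription factor STAT3. Their genes are classic targets of NF-kB, AP-1 and C/EBP factors, and many of their mRNAs are kept short-lived by decay proteins such as tristetraprolin (ZFP36). Lung carcinoma cells are a known source of several of them.

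Promoter sequences of the members were read for runs of letters that several of them hold. RefSeq promoters (GRCh38.p14) were found for 8 of the 10 members, not for CCL2 or LIF. The last 150 bases before the start are given 5′ to 3′ for the 7 members in which a searched motif matched, with matches that begin in them in capitals:

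CXCL8 (chr4:73740419-73740568, plus strand): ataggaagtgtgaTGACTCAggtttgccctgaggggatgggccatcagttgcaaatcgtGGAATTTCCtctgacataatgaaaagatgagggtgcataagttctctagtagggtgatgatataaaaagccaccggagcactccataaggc
CXCL2 (chr4:74099196-74099345, minus strand): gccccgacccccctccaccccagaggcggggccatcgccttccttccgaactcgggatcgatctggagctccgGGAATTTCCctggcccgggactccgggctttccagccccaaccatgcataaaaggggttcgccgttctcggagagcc
CXCL3 (chr4:74038690-74038839, minus strand): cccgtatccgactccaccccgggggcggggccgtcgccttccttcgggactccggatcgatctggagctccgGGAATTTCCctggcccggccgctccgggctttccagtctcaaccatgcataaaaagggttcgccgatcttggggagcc
CXCL1 (chr4:73869243-73869392, plus strand): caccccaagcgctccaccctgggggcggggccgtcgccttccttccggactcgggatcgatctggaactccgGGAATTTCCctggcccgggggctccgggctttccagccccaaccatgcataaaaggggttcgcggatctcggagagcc
CXCL5 (chr4:73998678-73998827, minus strand): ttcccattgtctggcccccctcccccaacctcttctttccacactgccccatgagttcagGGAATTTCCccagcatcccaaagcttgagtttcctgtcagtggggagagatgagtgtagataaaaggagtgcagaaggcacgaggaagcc
IL6 (chr7:22727050-22727199, plus strand): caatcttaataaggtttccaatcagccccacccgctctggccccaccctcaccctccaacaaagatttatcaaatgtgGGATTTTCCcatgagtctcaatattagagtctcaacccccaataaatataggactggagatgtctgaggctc
IL11 (chr19:55370464-55370613, minus strand): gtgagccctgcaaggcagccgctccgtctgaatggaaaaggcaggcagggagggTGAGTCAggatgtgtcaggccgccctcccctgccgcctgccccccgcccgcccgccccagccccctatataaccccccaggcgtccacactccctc

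The letters searched, on both strands of the 250 bases before the start, were GGANNTTCC for kB, TGANTCA for AP-1, TTGCNNAA for C/EBP and ACGTCA for the cyclic AMP response element (CRE). They were chosen after these promoters had been read, so the member matches follow in part from that choice. The shares of all promoters given beside them are therefore no test of enrichment. The printed stretches of CXCL1, CXCL2 and CXCL3 are also much alike and do not count as separate cases. The kB letters matched in 6 of 8 member promoters, CXCL1, CXCL2, CXCL3, CXCL5, CXCL8 and IL6, against 3.84% of all 35116 promoters. Those matches began between 72 bases (IL6) and 91 bases (CXCL8) before the start. The AP-1 letters matched in CXCL8 and IL11, 2 of 8, against 6.57% of all promoters. The C/EBP letters matched in CXCL2 and IL6, against 9.05%, and the CRE letters in the same pair, against 7.10%. In those promoters the C/EBP and CRE matches began farther out than the 150 bases printed. The C/EBP match of IL6, from -155 to -148, reaches into the printed stretch, where its end is in lower case. CCL20 held none of the 4 in this window. Other forms of these motifs were not searched, so this does not show that CCL20 lacks a kB site. The RefSeq start lies inside the listed gene for CXCL3, CXCL8, CCL20 and IL6, and by a single base for CXCL2. A match is a run of letters and was not tested as a site, and none of these letters is evidence of binding in these cells.

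**Figure D1:**
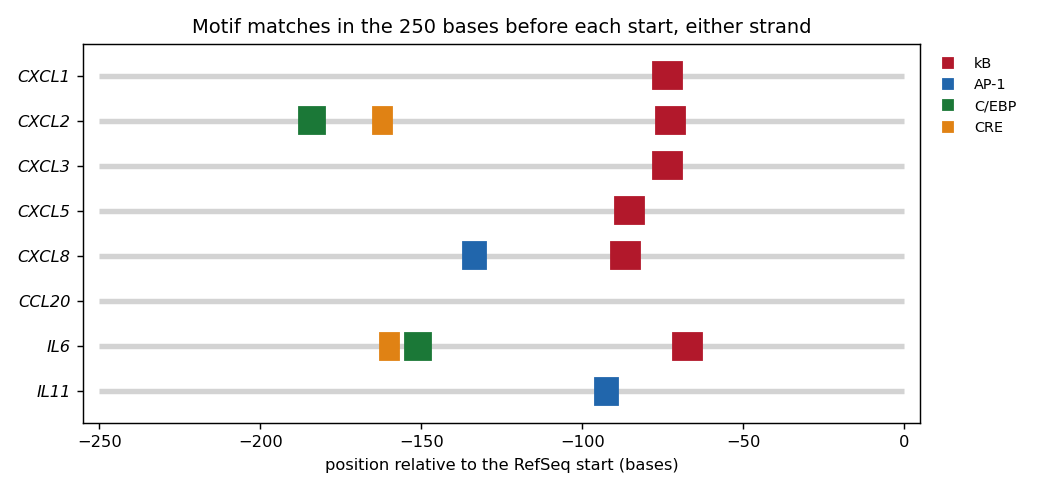
Motif matches before the start of 8 member genes. The horizontal axis is the position relative to the RefSeq start in bases, each grey line is the 250 bases searched, and each coloured block is a match to the kB, AP-1, C/EBP or CRE letters. The kB blocks of the 5 ELR chemokines and IL6 all begin within 91 bases of the start, and the line of CCL20 has no block.

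Values are the deposited FPKM, fragments counted on a gene per kilobase of its length, scaled by the fragments of the whole library, so levels of different genes can be set side by side. Reads on genes totalled 14225849 to 17874422 per library, and a library's number is its place in its group. Markers of the lines were checked first. KRT8, a keratin of simple epithelia, was at 194 ± 18.0 FPKM in H460 controls and 649.9 ± 91.4 in A549 controls (mean ± SD, n = 3 here and below). EPCAM and CDH1, defining epithelial surface genes, were at or near 0 in H460 controls (0.0473 and 0 FPKM) and at 1.91 and 4.90 FPKM in A549 controls. KRT7 and KRT18 were also lower in H460 controls, at 1.17 and 70.3 FPKM against 557 and 331 in A549 controls. KRT19 went the other way, at 122 ± 18.8 in H460 controls and 66.1 ± 11.4 in A549 controls. With ISP-I, KRT8 was at 190 FPKM in H460 and 324 in A549, and CDH1 at 0.0153 and 0.756. Of 10 leukocyte markers the summed level was 5.52 to 6.73 FPKM in control H460 libraries and 3.55 to 4.79 in treated H460 libraries, and 2.17 to 3.21 in control and 7.28 to 7.94 in treated A549 libraries. PTPRC, which encodes the pan-leukocyte antigen CD45, stayed at or under 0.0144 FPKM in every group mean, and CD3E had no read. The leukocyte markers above 1 FPKM in a group mean were CD14 (5.92 to 1.26 in H460, 1.07 in A549 controls) and ITGAM (2.22 in H460 with ISP-I, 1.23 to 6.89 in A549). Of 9 fibroblast and endothelial markers the sum was 10.0 to 11.1 FPKM in H460 controls and 5.17 to 6.01 with ISP-I. COL3A1 was most of it in the H460 controls. With ISP-I the largest in H460 were PDGFRB (mean 2.40 FPKM, from 0.543 in controls) and COL3A1 (2.25). Over the A549 groups the sum was 1.59 to 2.52.

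CXCL8 and CXCL2 had the largest changes of the members in H460 on the log2(FPKM + 1) scale, an order that IL11 below alters on other scales. CXCL8 (chromosome 4, 73740541 to 73743716, hg38, plus strand) was at 74.8, 64.0 and 62.1 FPKM in the 3 H460 controls and at 1596, 1792 and 1878 with ISP-I. Every treated library stood far above every control, and the mean went from 67.0 ± 6.86 to 1755 ± 144 FPKM, a ratio of 26.2. On the log2(FPKM + 1) scale the fold change was 4.69 (SE 0.16, limma with Benjamini-Hochberg adjustment over 13423 genes, adjusted p 2.16e-07). CXCL8 was the highest of the 10 members in treated H460 and the third highest in its controls.

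CXCL2 (chromosome 4, 74097040 to 74099196, minus strand) was at 31.3, 31.8 and 34.0 FPKM in H460 controls. With ISP-I it reached 490 in library 1, 400 in library 2 and 860 in library 3. The controls were tight and the treated libraries were spread, with no overlap between them. The means were 32.4 ± 1.44 and 583 ± 244 FPKM, a ratio of 18.0 and a log2 fold change of 4.05 (SE 0.26, limma adjusted p 3.22e-06).

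CXCL3 (chromosome 4, 74036589 to 74038807, minus strand) was at 9.74, 10.8 and 11.5 FPKM in H460 controls and at 37.5, 28.5 and 61.9 with ISP-I. Its mean rose from 10.7 ± 0.867 to 42.6 ± 17.3 FPKM, a ratio of 4.0 and a log2 fold change of 1.83 (SE 0.25, limma adjusted p 2.11e-04). CXCL1 (chromosome 4, 73869393 to 73871308, plus strand) was at 145, 144 and 163 FPKM in controls and at 286, 221 and 430 with ISP-I. All 3 treated libraries were above all 3 controls, but its log2 fold change of 0.996 (SE 0.23, limma adjusted p 0.00487) fell just short of the 2-fold threshold. CXCL1 passed 2-fold when H460 control library 3 (1.05), ISP-I library 1 (1.03) or ISP-I library 2 (1.22) was left out, and without ISP-I library 3 its value was 0.74. It also passed with median-of-ratios scaling (1.28), with limma voom on recovered reads (1.28) and with a pseudocount of 0.1 (1.0005). For CXCL1, CXCL2 and CXCL3, and for IL6, IL11 and LIF below, ISP-I library 3 of H460 was the highest and ISP-I library 2 the lowest, whereas for CXCL8 library 1 was the lowest. Libraries 2 and 3 of H460 with ISP-I were also the pair that differed most over all genes (98.7 times the variance of read sampling). The part of that spread in these values was not tested.

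CXCL5 (chromosome 4, 73995642 to 73998677, minus strand) was the exception among the ELR chemokines. It was the highest member in H460 controls at 221, 193 and 174 FPKM, and it was at 179, 174 and 181 with ISP-I. The groups overlapped, and the log2 fold change was -0.13 (SE 0.14, limma adjusted p 0.428). Its sign depended on scaling, since dividing FPKM by median-of-ratios factors gave 0.15. Under that scaling the median change over all genes in H460 went from -0.15 to 0.0069 (log2), a shift of 0.154, and H460 changes are to be read relative to it.

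**Figure D2:**
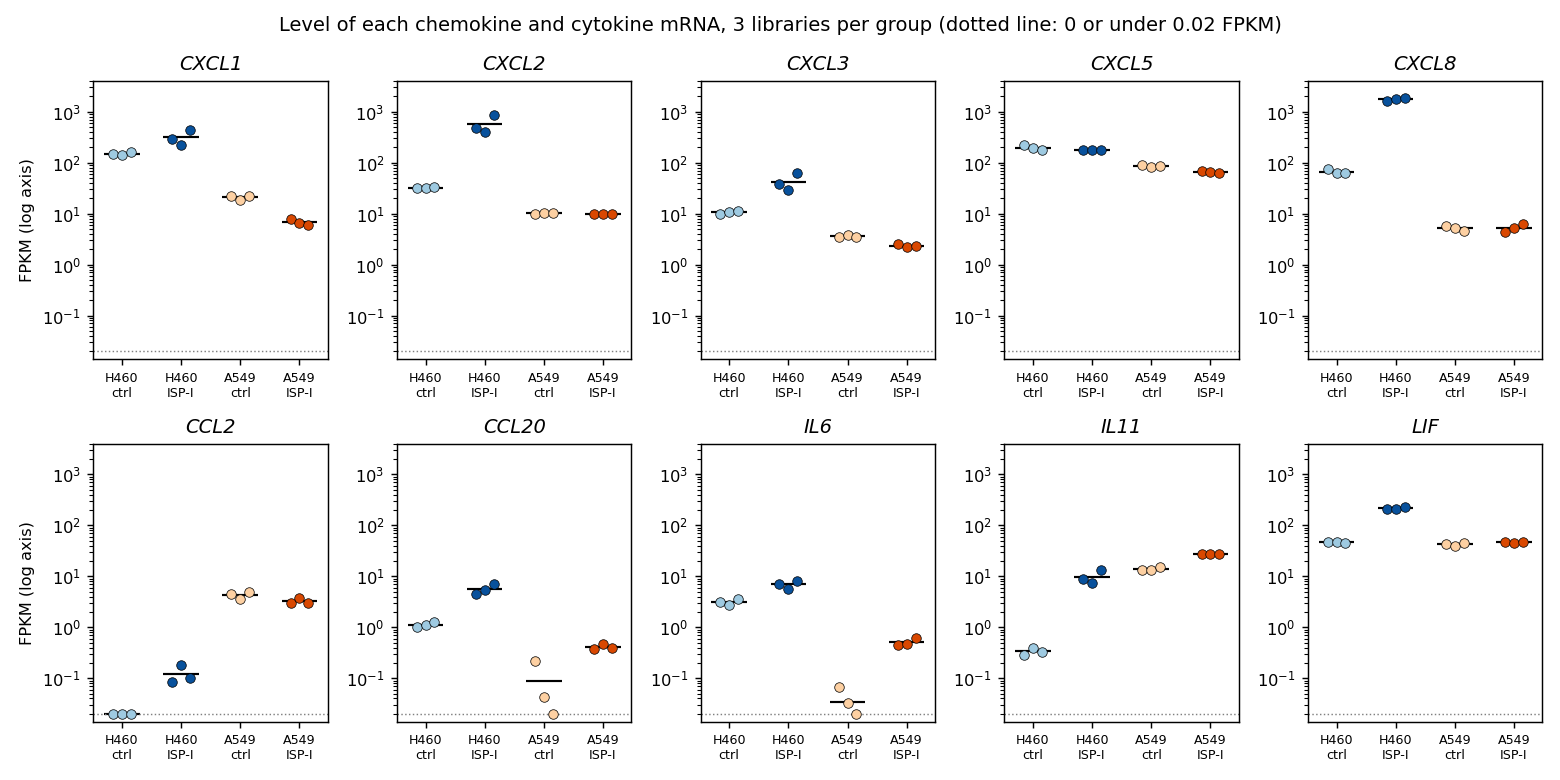
FPKM of each member on a log axis, with each point a library, each horizontal bar a group mean, and 3 libraries in each of the 4 groups. Points on the dotted line are at 0. CXCL8 in H460 stands at 62.1 to 74.8 FPKM without and 1596 to 1878 with ISP-I, whereas in A549 its points stay between 4.34 and 6.29.

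In A549 the same 5 genes gave another picture. CXCL8 was at 5.84, 5.32 and 4.66 FPKM in controls and at 4.34, 5.15 and 6.29 with ISP-I, fully overlapping (log2 fold change -0.01, SE 0.13, limma adjusted p 0.953). CXCL2 was at 9.91, 10.3 and 10.3 FPKM against 9.92, 10.0 and 9.92 (-0.02, SE 0.06, adjusted p 0.758). Neither difference exceeded the spread between libraries. CXCL1 fell. It was at 22.3, 18.7 and 21.9 FPKM in controls and at 7.72, 6.51 and 5.99 with ISP-I, 3.11-fold lower in the mean (log2 fold change -1.51, SE 0.10, limma adjusted p 1.18e-05). CXCL3 was lower by less than 2-fold, from 3.61 ± 0.222 to 2.37 ± 0.152 FPKM (-0.45, SE 0.08, adjusted p 0.00158). CXCL5, also the highest member in A549, was lower by less than 2-fold as well, from 86.5 ± 3.38 to 66.3 ± 2.93 FPKM (-0.38, SE 0.07, adjusted p 0.00159). For CXCL1, CXCL3 and CXCL5 the A549 groups did not overlap.

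The 5 ELR chemokines together summed to 457 ± 21.9 FPKM in H460 controls and 2872 ± 467 with ISP-I, and in A549 to 127 ± 5.06 and 90.6 ± 3.04. Their make-up changed in H460. CXCL8 was 14.6% ± 0.798 of the sum in H460 controls and 61.7% ± 6.73 with ISP-I, while CXCL5 went from 42.8% ± 3.42 to 6.29% ± 0.862. In A549, CXCL5 made up 68.4% ± 0.119 of the sum in controls and 73.1% ± 0.835 with ISP-I, and CXCL8 4.17% ± 0.437 and 5.83% ± 1.25. CXCL5 was thus the largest share in 3 of the 4 groups.

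All 5 lie in a cluster of CXC genes on chromosome 4, in a span of 359 kb that holds 9 listed genes from CXCL8 to CXCL2. The other 4 genes of the span were almost silent in both lines. CXCL6, another neutrophil attractant, had 4 reads in H460 with ISP-I and none in the other groups. PF4, a platelet chemokine, had 10 reads in A549 controls and 10 with ISP-I, and PF4V1 and PPBP had no read in any library. In the order of the chromosome the H460 log2 fold changes were 4.69 for CXCL8, 0.996 for CXCL1, -0.13 for CXCL5, 1.83 for CXCL3 and 4.05 for CXCL2. CXCL1, CXCL2 and CXCL3 are close copies, so reads could in principle be shared. Of the windows of 150 bases in their MANE transcripts, 1025, 966 and 926 in turn, 0 were identical between any pair.

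**Figure D3:**
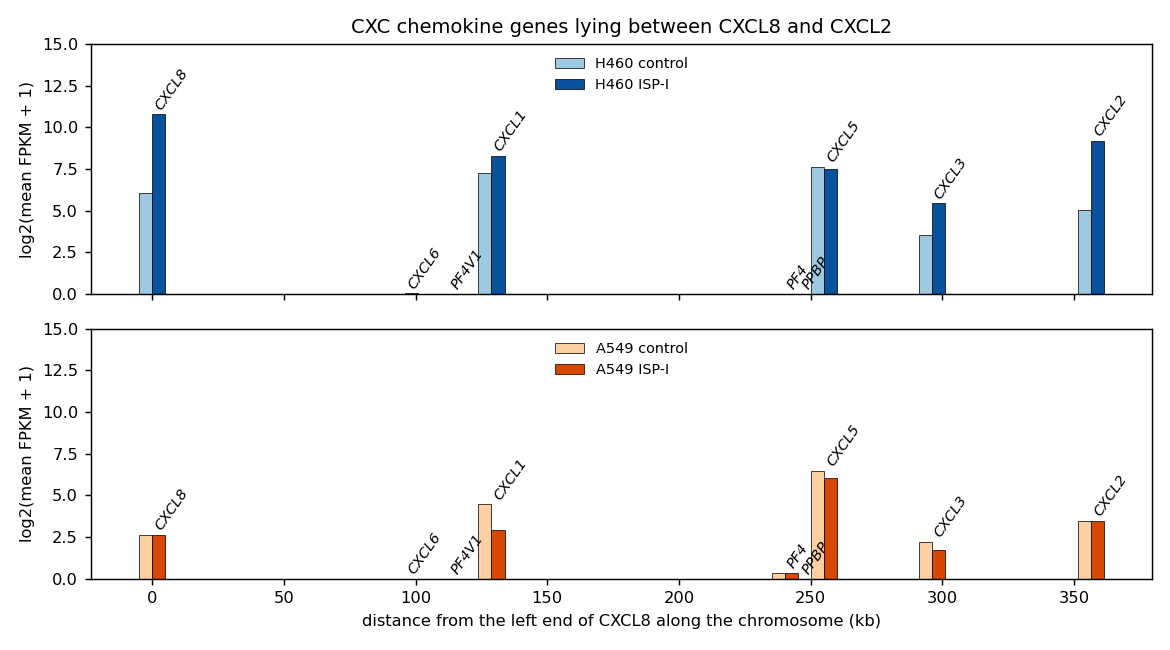
Mean level of the 9 listed CXC genes of the chromosome 4 cluster against distance from CXCL8 in kb, H460 above and A549 below, as log2(mean FPKM + 1) of 3 libraries with the pale bar for control and the dark bar for ISP-I. Bars of CXCL8 and CXCL2, at the ends of the span, grow most in H460, the CXCL5 bars are of near equal height there, and CXCL6, PF4V1, PF4 and PPBP are at or near 0.

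The CC chemokines were low. CCL20 (chromosome 2, 227805739 to 227817564, plus strand) was at 1.0, 1.12 and 1.26 FPKM in H460 controls and at 4.6, 5.42 and 6.98 with ISP-I. It rose 5.03-fold in the mean (log2 fold change 1.63, SE 0.15, limma adjusted p 1.85e-05). In A549 it stood on few reads, 6 over the 3 controls and 30 with ISP-I, a rate ratio of 4.86 (95% interval 1.99 to 14.3, counting error only). Its A549 levels were 0.220, 0.0427 and 0 FPKM against 0.378, 0.480 and 0.394, and the log2 fold change of 0.39 (SE 0.08, limma adjusted p 0.00419) is drawn toward 0 by the pseudocount of 1.

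CCL2 (chromosome 17, 34255218 to 34257203, plus strand) had the opposite distribution between the lines. H460 controls had no CCL2 read, which at a floor of 3 reads over the group allows a level of up to 0.0340 FPKM. H460 with ISP-I had 12 reads, at 0.0845, 0.181 and 0.102 FPKM, at least 3.60-fold higher than that floor. It was below the mean of 0.1 FPKM needed for testing in H460. In A549, CCL2 was at 4.50, 3.67 and 4.94 FPKM in controls and at 3.03, 3.82 and 2.95 with ISP-I. The A549 groups overlapped, and the log2 fold change was -0.33 (SE 0.12, limma adjusted p 0.0433).

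All 3 IL6 family cytokines were higher with ISP-I in H460. LIF (chromosome 22, 30240453 to 30246759, minus strand), which acts through LIFR and gp130, was at 46.4, 46.3 and 45.8 FPKM in controls and at 212, 207 and 233 with ISP-I. Its libraries were the most even of the called members, and its mean rose 4.71-fold, from 46.2 ± 0.364 to 217 ± 13.9 (log2 fold change 2.21, SE 0.12, limma adjusted p 1.46e-06). In A549, LIF was at 43.9, 39.9 and 45.9 FPKM in controls and at 46.3, 44.8 and 47.8 with ISP-I, overlapping (0.10, SE 0.07, adjusted p 0.274).

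IL11 (chromosome 19, 55364382 to 55370463, minus strand), which acts through IL11RA and gp130, was nearly absent from H460 controls at 0.285, 0.393 and 0.326 FPKM, on 11 to 16 reads per library. With ISP-I it was at 8.71, 7.44 and 13.1 FPKM, 29.1-fold higher in the mean, the largest ratio of the members tested in H460 (log2 fold change 2.98, SE 0.18, limma adjusted p 2.68e-06). A549 already held 13.4, 13.2 and 15.1 FPKM in controls and had 27.4, 26.8 and 28 with ISP-I. The A549 libraries did not overlap, with a ratio of 1.97 that stayed under 2-fold (0.93, SE 0.07, adjusted p 2.04e-05).

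IL6 itself (chromosome 7, 22725884 to 22732002, plus strand) was modest in both lines. In H460 it was at 3.16, 2.70 and 3.57 FPKM in controls and at 7.19, 5.63 and 8.27 with ISP-I, a ratio of 2.24. The groups did not overlap, but on log2(FPKM + 1) the change of 0.95 (SE 0.15, limma adjusted p 6.07e-04) was under 2-fold. It passed 2-fold without H460 control library 3 (1.02) or ISP-I library 2 (1.08). It also passed with a pseudocount of 0.1 (1.13), quantile normalization (1.14), median-of-ratios scaling (1.19) and voom (1.43). In A549, IL6 had 3 reads over the controls and 47 with ISP-I, a rate ratio of 15.2 (95% interval 4.90 to 76.5, counting error only). Its A549 levels were 0.0680, 0.0329 and 0 FPKM against 0.453, 0.462 and 0.607 (log2 fold change 0.54, SE 0.06, limma adjusted p 1.60e-04).

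In counts, 9 members were tested in H460 and 6 were called higher (CXCL2, CXCL3, CXCL8, CCL20, IL11 and LIF), where called means over 2-fold with a limma adjusted p under 0.05. Of all 13423 genes tested there, 10.5% were called higher and 15.2% lower. With a pseudocount of 0.1, median-of-ratios scaling or voom, CXCL1 and IL6 were added and 8 members were called higher. At any fold change 8 members had an adjusted p under 0.05, all higher, where 27.6% of all genes tested were higher and 41.5% lower. The count of members lower was 0, also at an unadjusted p and, over 2-fold, by limma voom on recovered reads. In A549, 10 members were tested and 1, CXCL1, was called lower, where 3.51% of 13705 genes were called lower and 4.20% higher. The count called higher in A549 was 0 in the main limma fit and 1 (IL6) with voom. With a pseudocount of 0.1 it was 2 (CCL20 and IL6). At any fold change 3 members were higher in A549 (CCL20, IL6 and IL11, also the count at an unadjusted p) and 4 lower (CXCL1, CXCL3, CXCL5 and CCL2), where 30.5% of all genes tested were higher and 27.0% lower. Control and ISP-I libraries did not overlap for 8 of the 9 members tested in H460, all higher, where 29.6% of all genes tested were higher without overlap and 43.1% lower. In A549 they did not overlap for 3 members higher (CCL20, IL6 and IL11) and 3 lower (CXCL1, CXCL3 and CXCL5), where 34.8% and 30.7% of all genes were, shares near those of the members. The median log2 fold change was 1.83 over the 9 members tested in H460, beside -0.15 over all genes, and -0.02 over the 10 in A549, beside 0.02.

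**Figure D4:**
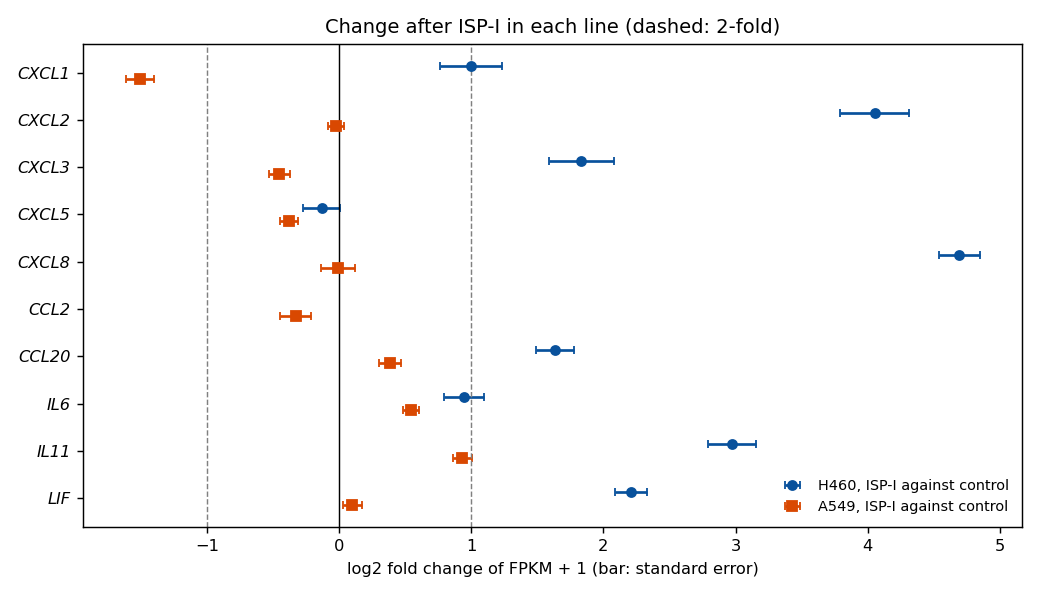
Log2 fold change of FPKM + 1 after ISP-I for each member, with circles for H460, squares for A549, bars for the standard error and dashed lines at 2-fold. CCL2 was not tested in H460 and has no circle. CXCL8, CXCL2, IL11 and LIF stand right of 2-fold in H460, at 4.69, 4.05, 2.98 and 2.21, and in A549 CXCL1 alone stands left of it, at -1.51.

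The change differed between the lines for 7 of 10 members, all larger in H460 (interaction over 1 on the log2 scale, limma adjusted p under 0.05), where 5.93% of 13953 genes were called in that direction and 10.1% in the other. The difference was 4.70 for CXCL8 (SE 0.18, adjusted p 3.89e-09), 4.08 for CXCL2 (SE 0.29, adjusted p 4.01e-07) and 2.51 for CXCL1 (SE 0.27, adjusted p 1.08e-05). CXCL1 was the member whose mean went up in one line and was called lower in the other. The difference was 2.29 for CXCL3, 2.11 for LIF, 2.04 for IL11 and 1.25 for CCL20 (limma adjusted p 3.43e-05, 7.27e-08, 7.56e-06 and 6.41e-05). It was 0.25 for CXCL5 (adjusted p 0.148) and 0.50 for CCL2 (adjusted p 0.0105). CCL2, which had no read in H460 controls, passed with a pseudocount of 0.1 (1.54, adjusted p 4.39e-04) and with voom (3.68, adjusted p 5.22e-04). For IL6 it was 0.40 (SE 0.17, adjusted p 0.0576), and its sign turned with the scale, to -1.08 with a pseudocount of 0.1 (adjusted p 0.00929) and -2.20 with voom (adjusted p 0.0194). The difference of CCL20 likewise rested on the pseudocount of 1, at 0.58 with 0.1 (adjusted p 0.315) and -0.06 with voom (adjusted p 0.956).

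Before treatment the lines already differed. Of 10 members, 6 were called higher in H460 controls than in A549 controls and 2 lower, where 5.64% and 8.78% of 13532 genes were. CXCL8 was 12.7-fold and CXCL1 7.18-fold higher in H460 (log2 differences 3.44 and 2.79, limma adjusted p 3.30e-08 and 7.07e-08), and CXCL2, CXCL3 and CXCL5 were 3.19-, 2.95- and 2.26-fold higher. IL6 was also called higher in H460 (log2 difference 2.0, adjusted p 3.77e-07). Its ratio of means was 93.5, resting on 3 reads over the A549 controls. The 2 members lower in H460 were IL11, 41.6-fold higher in A549 (log2 difference -3.48, adjusted p 1.71e-08), and CCL2 (-2.42, adjusted p 1.98e-07). LIF did not differ beyond the spread (0.09, SE 0.08, adjusted p 0.351), and CCL20 missed 2-fold on this scale at 0.97 (adjusted p 2.89e-05). The pseudocount of 1 draws the CCL20 value toward 0. Its ratio of means was 12.8, resting on 6 reads over the A549 controls. The log2 difference of CCL20 passed at 2.88 with a pseudocount of 0.1 and at 4.10 with voom.

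With ISP-I, 8 members were higher in H460 than in A549 and the same 2, IL11 and CCL2, lower, where 7.67% and 16.0% of 13936 genes were. These comparisons share libraries with those above. CXCL8 was 334-fold and CXCL2 58.6-fold higher in treated H460 (log2 differences 8.14 and 5.66, limma adjusted p 3.94e-08 and 1.37e-06). IL11 was 2.81-fold higher in treated A549 (log2 difference -1.44, adjusted p 2.39e-04). By mean level the order was H460 with ISP-I, H460 control, A549 control, A549 with ISP-I for CXCL1, CXCL2, CXCL3 and CXCL8, with the A549 groups overlapping for CXCL2 and CXCL8. For IL11 it was A549 with ISP-I, A549 control, H460 with ISP-I, H460 control, with no neighbours overlapping. For LIF, treated H460 stood above the other 3 groups, whose neighbours overlapped.

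The receptors of the chemokines were at or near 0. Of 10 receptor genes listed, CXCR1, CXCR2, CCR2, CCR6, ACKR1 and ACKR2 stayed under 0.1 FPKM in every group mean, and the 4 tested were chains for the IL6 family. In H460, 2 of 4 were called higher, beside 10.5% of all genes. IL6R, which binds IL6, rose from 6.30 ± 0.573 to 44 ± 5.97 FPKM (log2 fold change 2.62, limma adjusted p 1.20e-06), and IL6ST, which encodes gp130, from 6.80 ± 2.04 to 35.2 ± 16.7 (2.15, adjusted p 4.00e-04). In A549, IL6R rose from 2.65 ± 0.338 to 10.2 ± 0.499 FPKM (1.62, adjusted p 4.32e-06), while IL6ST, at 15.5 ± 5.92 and 26.3 ± 0.533, stayed under 2-fold (0.80, adjusted p 0.0250). IL11RA, the IL11 binding chain, was low, at 1.06 ± 0.123 and 0.479 ± 0.0625 FPKM in H460 (-0.48, adjusted p 7.91e-04) and at 1.16 ± 0.227 and 0.834 ± 0.140 in A549 (-0.24, adjusted p 0.0681). LIFR was at 4.70 ± 1.14 and 8.11 ± 3.02 in H460 (adjusted p 0.0522) and at 1.62 ± 0.518 and 2.37 ± 0.176 in A549 (adjusted p 0.0515).

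Of 14 genes of the JAK-STAT3 relay and its targets and brakes, 3 were called higher and 2 lower in H460, and 1 each way in A549. Over all genes tested, upward calls made up 10.5% (H460) and 4.20% (A549), and downward calls 15.2% and 3.51%. Whether these small counts differ from those shares was not tested. In H460, MCL1, an anti-apoptotic STAT3 target, rose from 109 ± 4.78 to 464 ± 18.0 FPKM (log2 fold change 2.08, limma adjusted p 3.16e-06), and JUNB and the signalling brake SOCS1 rose by 1.92 and 1.16. The kinase TYK2 fell by 1.69 and the STAT3 inhibitor PIAS3 fell by 1.17 on that scale (adjusted p 4.11e-06 and 7.24e-05). In A549, SOCS3, the feedback inhibitor of gp130 signalling, rose from 9.43 ± 0.518 to 24.3 ± 1.07 FPKM (1.28, adjusted p 3.95e-06), and BCL3 fell from 19.3 ± 0.816 to 6.40 ± 0.938 (-1.46, adjusted p 1.16e-05). STAT3 itself was called in neither line, at 8.22 ± 0.680 and 7.0 ± 0.512 FPKM in H460 (adjusted p 0.142) and at 26.9 ± 0.722 and 17.8 ± 0.824 in A549 (-0.57, adjusted p 1.53e-04). The median change over the list was 0.11 in H460 and 0.05 in A549 (log2).

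Of 15 genes listed as NF-kB subunits and inhibitors, 11 were called higher in H460 and 3 in A549. Of all genes tested, 10.5% were called higher in H460 and 4.20% in A549. The list also held BIRC3 and the kinase complex genes IKBKB, CHUK and IKBKG, which are neither subunits nor inhibitors of NF-kB. BIRC3 and IKBKG were among those called in H460, and BIRC3 among those called in A549. In H460 the largest were RELB, a subunit of the non-canonical pathway, from 1.78 ± 0.327 to 52.3 ± 7.69 FPKM (log2 fold change 4.26, limma adjusted p 2.46e-07), and the inhibitor TNFAIP3 (A20), from 20.5 ± 1.63 to 273 ± 38.5 (3.67, adjusted p 3.95e-07). BIRC3, an inhibitor of apoptosis, and NFKB2, the precursor of p52, rose there by 3.22 and 3.17. In A549 the called genes were TNFAIP3, from 1.94 ± 0.199 to 18.2 ± 0.787 FPKM (2.71, adjusted p 3.59e-07), BIRC3 (1.59) and the inhibitor NFKBIB (1.48). RELB did not pass in A549, at 12.9 ± 0.471 and 14.3 ± 0.636 FPKM (0.13, adjusted p 0.121), and its change differed between the lines by 4.12 (adjusted p 4.29e-09). RELA, the main activating subunit, was under 2-fold in both (0.87 and 0.70). The median log2 fold change of the list was 2.10 in H460 and 0.47 in A549. The interaction was called for 9 of 15, all larger in H460, beside 5.93% of all genes. These genes are themselves known NF-kB targets in part, and their mRNA is no measure of the factor's activity.

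Of 14 genes listed as AP-1, C/EBP and ATF factors, 9 were called higher in H460 and 10 in A549, with median log2 fold changes of 2.93 and 1.5. Of all genes tested, 10.5% were called higher in H460 and 4.20% in A549. The list included EGR1, a zinc finger factor of none of these families, and without it the counts were 8 and 9 of 13 and the medians 2.45 and 1.45. In H460 the largest were EGR1 (log2 fold change 7.87), FOS (5.31), JUN (4.97) and FOSB (4.66), immediate early genes. FOS rose from 1.46 ± 0.433 to 96.9 ± 20.4 FPKM and JUN from 11.3 ± 0.731 to 387 ± 27.9 (limma adjusted p 2.23e-07 and 6.96e-08). In A549 the largest were EGR1 (4.82), ATF3 (3.08), DDIT3 (3.01) and CEBPB (2.21), of which ATF3 and DDIT3 are stress response genes. CEBPB, the C/EBP factor named for its action on the IL6 promoter, rose from 27.9 ± 2.54 to 133 ± 1.38 FPKM in A549 (adjusted p 5.65e-07) and from 60.0 ± 6.82 to 206 ± 76.4 in H460 (1.69, adjusted p 4.63e-04). The interaction was called for 7 of 14, all larger in H460, and without EGR1 for 6 of 13, beside 5.93% of all genes.

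**Figure D5:**
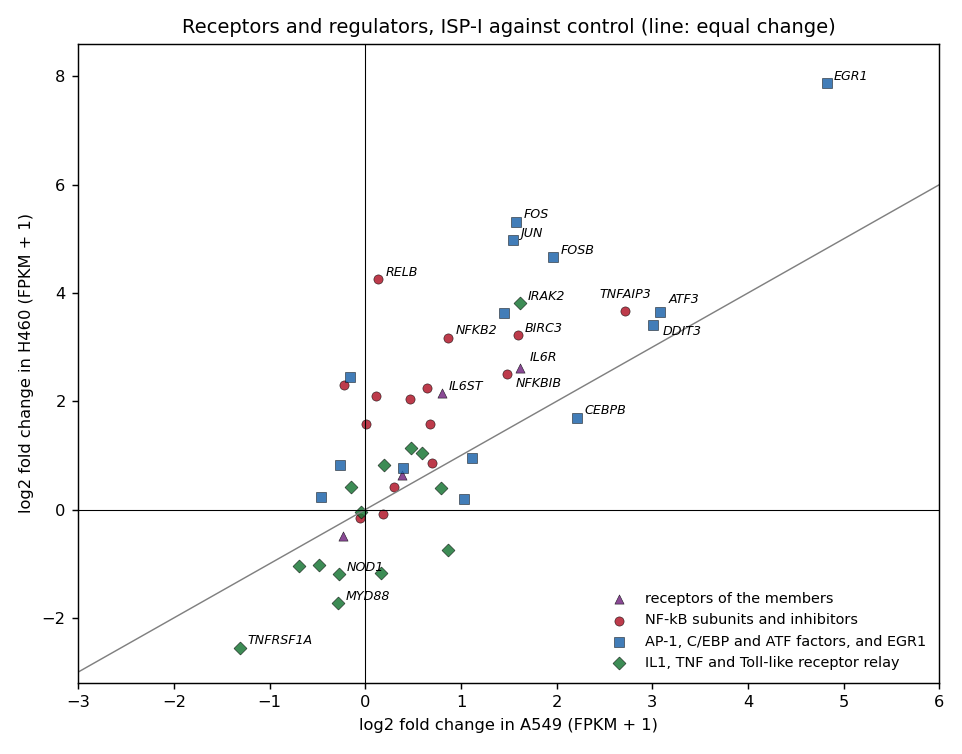
Log2 fold change of FPKM + 1 after ISP-I in H460 (vertical) against A549 (horizontal) for genes tested in both lines from 4 lists, with each point a gene and the grey line marking equal change. Named points are up to 4 called genes of each list and line. RELB, at 4.26 in H460 and 0.13 in A549, lies far above the line, whereas DDIT3, at 3.42 and 3.01, lies close to it.

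Genes that relay interleukin 1, tumour necrosis factor (TNF) and Toll-like receptor signals went both ways in H460, 3 called higher and 6 lower of 16 tested. Of all genes tested there, 10.5% were called higher and 15.2% lower. The kinase IRAK2 rose from 1.57 ± 0.393 to 34.8 ± 2.84 FPKM (log2 fold change 3.81, limma adjusted p 3.38e-07). The TNF receptor TNFRSF1A fell from 79.6 ± 3.25 to 12.8 ± 1.45 (-2.55, adjusted p 8.96e-07), the adaptor MYD88 fell from 5.97 ± 0.363 to 1.11 ± 0.337 (-1.73, adjusted p 1.07e-05), and the sensor NOD1 fell by 1.2. In A549, 1 of 15 was called in each direction, where 4.20% of all genes were called higher and 3.51% lower. They were again IRAK2 (1.62, adjusted p 9.78e-07) and TNFRSF1A (-1.31, adjusted p 5.94e-06). The list's median was -0.29 in H460 and 0.09 in A549.

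Most relatives of the members were silent. Of 11 other CXC chemokines, 3 were tested in H460 and 4 in A549, and CXCL11, an interferon-inducible T cell attractant, was called higher in both. It had no read in the controls of either line and stood at 2.18 ± 1.06 FPKM in H460 and 6.53 ± 0.484 in A549 with ISP-I (limma adjusted p 1.40e-04 and 1.83e-07). Unlike the members called between the lines, its change was smaller in H460 (interaction -1.30, adjusted p 7.18e-04). CXCL16 was at 5.52 ± 0.184 and 5.67 ± 0.647 FPKM in H460. Of 21 other CC, CX3C and XC chemokines, 3 were tested in H460 and 2 in A549 and 0 were called by limma, although at an unadjusted p 2 were higher in H460 and 1 went each way in A549, the same counts that voom called. CCL5 was at 0.226 ± 0.0513 and 1.27 ± 0.385 FPKM in H460 (0.87, adjusted p 2.13e-04).

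Of 8 other IL6 family ligands, 6 were tested in H460, where CLCF1, which signals through the ciliary neurotrophic factor receptor and gp130, rose from 7.19 ± 0.535 to 21.4 ± 2.80 FPKM (log2 fold change 1.44, limma adjusted p 1.94e-05). In A549 CLCF1 was at 19.8 ± 1.93 and 16.1 ± 0.462 (-0.28, adjusted p 0.0186), and the interaction was 1.72 (adjusted p 1.90e-06). Of 5 tested in A549, EBI3, a subunit of interleukin 27, fell from 1.89 ± 0.940 to 0.373 ± 0.0624 FPKM (-1.02, adjusted p 0.00387). Of 22 other inflammatory cytokines, 2 of 16 tested were called higher in H460 and 2 of 12 in A549, beside 10.5% and 4.20% of all genes. Voom called 9 of 13 and 6 of 10 higher, and in A549 2 lower. IL1A, an upstream inducer of many chemokines, rose from 2.89 ± 0.231 to 49.6 ± 8.14 FPKM in H460 (3.69, adjusted p 3.61e-07) and was at 0.0685 ± 0.0355 and 0.143 ± 0.124 in A549. IL32 rose in both lines. Its levels were 0.127 ± 0.0597 and 2.89 ± 0.653 FPKM in H460 (1.77, adjusted p 6.71e-06) and 3.64 ± 1.10 and 12.9 ± 0.928 in A549 (1.60, adjusted p 6.36e-05). IL23A rose in A549 from 0.272 ± 0.0361 to 2.28 ± 0.825 (1.33, adjusted p 2.20e-04).

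The genes whose pattern over the 12 libraries was most like that of a member were found among 8049 genes that reached 5 FPKM in a group, by Pearson correlation of log2(FPKM + 1). They describe a shared shape over 4 groups and no more, since the libraries are shared and the groups stand apart. For CXCL8 they were PTPRN (r 0.997), TXNRD1 (0.996) and RAB7B (0.995). TXNRD1, which encodes thioredoxin reductase, went from 354 to 649 FPKM in H460 and stood at 233 and 236 in A549. For IL6 they were SNAI1 (0.994), PPP1R3C (0.992) and FAM241A (0.991), and for LIF they were HS3ST2 (0.998), EGR4 (0.997) and NRARP (0.995). Among the members themselves, CXCL8 was most like CXCL2 (0.984) and CXCL3 (0.979). CCL2 ran from -0.94 with CXCL5 to 0.74 with IL11, and IL11 from -0.80 with CXCL5 to that same value.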

How the data were processed

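The libraries were 3 control and 3 ISP-I libraries of each of H460 and A549. According to the submitters' processing notes and methods, the authors checked reads with FastQC, aligned them with HISAT2 (hg38), counted fragments per gene by HTSeq 0.9.1 and deposited FPKM. Annotation version and strand setting are not given in the sources used here, so antisense reads may be included. FPKM times gene length gave whole reads (within 0.1 read) for 100% of the values, at 14225849 to 17874422 reads per library. Of the table's lines, 4 pieces of a broken cell were left out. The columns name line, treatment and a number from 1 to 6 within the line, which is not tied to the replicate numbers of the labels.

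In each comparison log2(FPKM + 1) of genes averaging 0.1 FPKM or more was fitted with limma 3.58.1 (R 4.3.3) with a mean-variance trend and Benjamini-Hochberg adjustment over all genes tested. Genes were called at over 2-fold and an adjusted p under 0.05. The pseudocount of 1 understates changes of low genes. The interaction used all 12 libraries. The fits were tested on simulated data. Intervals on reads are exact conditional binomial intervals at 95% and cover counting error only. Python 3.11.15, pandas 2.3.3, numpy 2.4.6 and scipy 1.17.1 read the tables.

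The members and gene lists were chosen with earlier results of these data known. All 10 members are named, and of each other list up to 4 called genes per line with the largest change and up to 2 others a reader would ask for. Alternatives were another pseudocount (0.1), another filter (a mean of 1 FPKM, or none), median-of-ratios scaling, quantile normalization, limma treat against 2-fold, limma voom on recovered reads, 1 fit of all 12 libraries, and the omission of each library in turn.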

Additional observations from a re-analysis of the deposited data

Results flagged for a closer look

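For 7 members the change after ISP-I differed between H460 and A549, which was tested as the interaction of line and treatment in limma (difference over 1 on the log2(FPKM + 1) scale, Benjamini-Hochberg adjusted p under 0.05, 3 libraries per group). The change in H460 minus the change in A549 was 4.703 for CXCL8, 4.077 for CXCL2, 2.505 for CXCL1, 2.286 for CXCL3, 2.11 for LIF, 2.044 for IL11 and 1.248 for CCL20. For CXCL8, CXCL2 and LIF the A549 groups overlapped and the H460 groups did not. For CXCL1 the groups did not overlap in either line, and the means moved in opposite directions. For IL11 and CCL20 the groups did not overlap in either line, and both means were higher with ISP-I. The difference of CCL20, which rests on 6 and 30 reads in A549, is the member difference of these 7 that lost its call on another scale.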

How the results depend on the processing

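Over the 5 comparisons and all alternatives, 698 of 732 member values kept their direction and side of the threshold, 22 newly passed it, 4 no longer did and 8 changed sign. With median-of-ratios scaling and with voom, CXCL5 in H460 turned from -0.13 to 0.149 and 0.150. In the interaction, IL6 turned to -1.08 with a pseudocount of 0.1 and -2.20 with voom, and CCL20 to -0.061 with voom. With quantile normalization the difference of LIF between the controls was -0.0033. CXCL8 in A549 ran from -0.126 to 0.099 when a library was left out. The values lost were CCL20 in the interaction with a pseudocount of 0.1 (0.58) and with treat, CXCL5 between the controls and IL11 between the treated groups with treat. Among those gained were CXCL1 and IL6 in H460, and CCL2 in the interaction with a pseudocount of 0.1 (1.54) and with voom (3.68).

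Counts of members moved by over 1.5 times as follows. In A549, 2 were higher with a pseudocount of 0.1 and 1 with voom. In the interaction, 1 was lower with a pseudocount of 0.1 and 1 with voom. Between treated groups, 1 was lower with treat. Counts over all genes moved more. A pseudocount of 0.1 gave 2322 higher and 3464 lower in H460, 1336 and 1062 in A549, 1451 and 2788 in the interaction, 1363 and 2251 between controls and 1806 and 3860 between treated groups. Treat gave 750 and 1052, 227 and 173, 281 and 399, 424 and 685, and 570 and 1227 in the same order. Voom gave 3056 higher in H460, 1316 higher and 1277 lower in A549, 2114 higher in the interaction, 1536 and 2244 between controls and 2731 higher between treated groups. Median-of-ratios scaling gave 1298 higher and 825 lower in the interaction and 1706 higher between treated groups, and quantile normalization 919 lower in the interaction. The cause of these moves was not tested.

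Without any single library no count moved by over 1.5 times. No paired analysis was possible because the column numbers run from 1 to 6 within a line and are not tied to the replicate numbers of the labels. Depth limits CCL2 in H460 and IL6 and CCL20 in A549, which rest on 47 reads or fewer per group.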

Other observations

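Of 14 genes for proteins that act on the decay or stability of AU-rich mRNAs, the mRNAs of 5 were called higher and of 1 lower in H460, beside 10.5% and 15.2% of all genes. ZFP36, which binds AU-rich elements and recruits deadenylases, rose from 18.3 ± 1.98 to 78.0 ± 14.3 FPKM in H460 (mean ± SD, n = 3; log2 fold change 2.02, limma adjusted p 8.35e-06) and from 9.88 ± 0.570 to 25.3 ± 2.22 in A549 (1.27, adjusted p 8.34e-06), where it was the called gene of the list. ZC3H12A, the endonuclease regnase-1, rose from 13.2 ± 1.75 to 55.8 ± 5.65 FPKM in H460 (2.0, adjusted p 4.31e-06) and was at 8.54 ± 0.888 and 8.84 ± 0.728 in A549, a difference between the lines of 1.95 (adjusted p 1.31e-06). ZFP36L1 (1.55) and ARID5A (1.26), a protein that stabilizes IL6 mRNA, also rose in H460, and ELAVL1, which encodes the stabilizing protein HuR, fell by 1.12, a call that voom did not make. Over the list the median change was 0.44 in H460 and -0.07 in A549 (log2).

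Of 15 genes of the p38, JNK and ERK kinase relays, H460 had 2 called higher and 4 lower, whereas A549 had 2 called higher and 1 lower. Upward calls over all genes tested were 10.5% (H460) and 4.20% (A549), and downward calls 15.2% and 3.51%. MAP2K3, which activates p38, rose in both lines, from 34.8 ± 3.83 to 169 ± 12.2 FPKM in H460 (2.25, adjusted p 2.19e-06) and from 23.3 ± 3.47 to 51.6 ± 1.5 in A549 (1.12, adjusted p 4.24e-05). DUSP1, a phosphatase that switches these kinases off, rose in both as well (1.95 and 1.44). The kinases MAPK11 and MAPK9 fell in H460 by 1.76 and 1.74, and MAP2K6, another activator of p38, fell in A549 by 1.27. MAPK14, the main p38 kinase, was lower in H460, at 10.3 ± 0.315 and 3.95 ± 0.532 FPKM (-1.20, adjusted p 3.43e-05), and under 2-fold in A549 (-0.26). The list's median was 0.31 in H460 and 0.05 in A549.

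Among the cell markers, 1 of 4 epithelial markers tested was called lower in H460 (KRT19) and 1 of 6 in A549 (CDH1). Leukocyte markers gave 1 of 4 in each direction in H460 and 1 of 4 higher in A549, and fibroblast and endothelial markers 1 of 4 in each direction in H460.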
